A study of Mus musculus with 12 samples.

Results

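Genes of the fat cell were followed in 12 mammary tumors of mice that carry Brca1 and p53 mutations as a genetic mosaic. The genes were chosen by their symbols among the 47593 genes of the expression table, and all 10 were found: Adipoq, Lep, Retn, Plin1, Cidec, Cidea, Fabp4, Lpl, Car3 and Pparg. The tumors came from 9 mice: 7 mice gave 1 tumor each, tumors 3 and 4 shared a mouse, and tumors 10, 11 and 12 shared another. The genotype label of every tumor reads MADM RG;GR alleles on a mixed background, and no mouse was treated. In these mice MMTV-Cre, a transgene active in mammary epithelium, brings about the exchange between chromosomes by which sparse GFP-labelled cells lose Brca1 and p53, while the cells around them keep a working copy. RNA was extracted from pieces of about 50 mg of homogenized tumor, so the fat, vessels, immune cells and muscle in a piece were measured together with the tumor cells. No normal gland or fat pad was among the samples used here, and all 12 tumors form a single condition, so levels are compared among tumors and among genes.

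The mammary gland grows inside a pad of white fat, and ducts and tumors lie in direct contact with adipocytes. An adipocyte stores triglyceride in a single large droplet coated by perilipin 1 and enlarged by CIDEC, secretes the hormones adiponectin, leptin and resistin, and takes up fatty acids that lipoprotein lipase frees from circulating lipoproteins. The nuclear receptor PPARG, with C/EBP factors, turns on most of these genes. Several of them are also used outside fat: Fabp4, a carrier of fatty acids, in capillary endothelium and macrophages, Lpl in muscle, macrophages and the lactating gland, Car3, a cytosolic carbonic anhydrase, in skeletal muscle, and Cidea, a relative of Cidec, in brown fat and the lactating gland.

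Values are TPM, relative transcript numbers in which reads are divided by gene length and scaled to the same total in each tumor, so levels of different genes can be set side by side. The sum lay between 999770 and 999909 per tumor, and depth is unknown, so a gene listed at 0 was not found at a depth that cannot be stated and no counting interval can be given. In bulk tissue, fewer cells of a type and less RNA per cell cannot be told apart. Tumor 2 stood apart: the summed level of 5 epithelial genes (Epcam, Cdh1, Krt8, Krt18 and Krt19) was 0.986 TPM there and between 155 and 7422 TPM in the other tumors, and the summed level of 5 B lymphocyte genes was 1852 TPM. Its label reads mammary tumor like the others, no basal keratin was in this list, and what set tumor 2 apart was not tested, so results that it changes are also given without it. Tumor 8 had the next lowest epithelial sum, 155 TPM against 2124 TPM or more in the remaining 10, and the highest fibroblast sum, 3115 TPM. Of that sum 1732 TPM was Dcn, and by the median of the 6 fibroblast genes tumor 4 was highest, 442 TPM against 333 TPM in tumor 8.

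Fat content differed widely among the tumors. Adipoq, the gene of adiponectin (ENSMUSG00000022878, chromosome 16 from 23146536 to 23158028 on GRCm38), was 32.7 TPM in tumor 4, 15.4 in tumor 5, 11.9 in tumor 3, 10.6 in tumor 10 and 10.1 in tumor 9, then 3.40 in tumor 12, 1.01 in tumor 11, 0.96 in tumor 8, 0.22 in tumor 6 and 0.12 in tumor 7, and it was listed at 0 in tumors 1 and 2. Thus 5 tumors had 10 TPM or more and 5 had less than 1 TPM, with a mean of 6.02 ± 8.20 TPM (SD, n = 9 mice). On the log2 scale the mice were spread without an empty middle: the largest gap between neighbouring mice was 1.25 in a range of 4.38. The 10 genes together took from 15.2 TPM in tumor 1 to 490 TPM in tumor 4, with a median of 107 TPM, which is 0.00152% to 0.0490% of all transcripts. The 5 adipocyte marker genes (Adipoq, Plin1, Cidec, Lep and Cfd, the gene of the adipocyte protease adipsin) summed to between 0 and 230 TPM. All 5 were listed at 0 in tumors 1 and 2, and all 5 were above 0 in tumors 3, 4, 5, 9, 10 and 12.

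**Figure D1:**
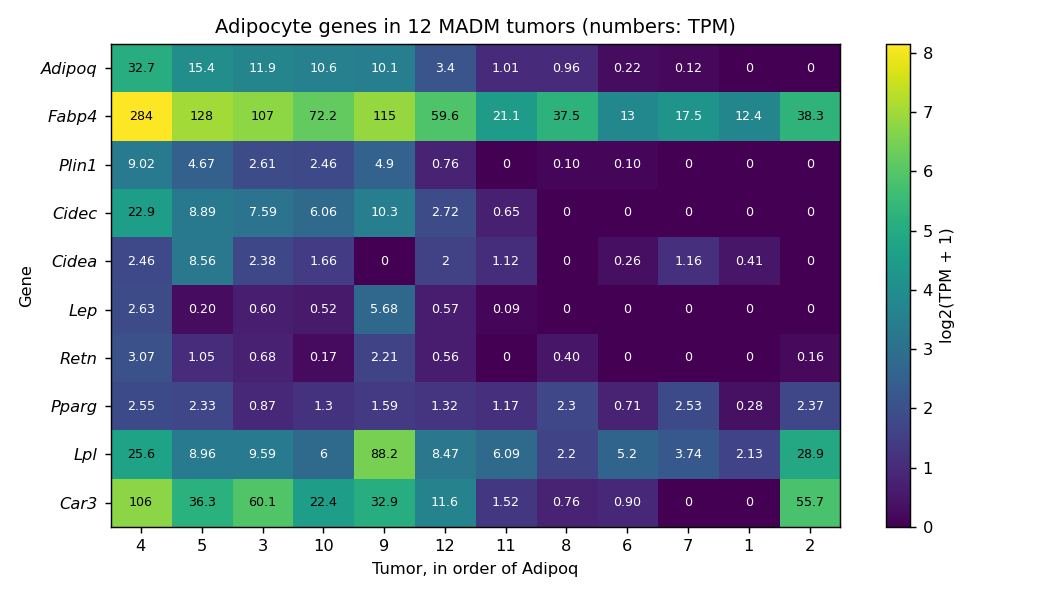
Heat map of the 10 adipocyte genes (vertical axis) in the 12 tumors (horizontal axis, in falling order of Adipoq). Colour gives log2(TPM + 1) and the printed numbers give TPM. Adipoq, Plin1 and Cidec fade together from tumor 4 (32.7, 9.02 and 22.9 TPM) to tumors 1 and 2, where all were at 0, whereas Fabp4, Lpl and Pparg were above 0 in all 12 tumors and Car3 was 55.7 TPM in tumor 2.

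The droplet genes were high in the tumors that were high in adiponectin. Plin1, which coats the droplet and controls access of lipases, was 9.02 TPM in tumor 4, 4.90 in tumor 9, 4.67 in tumor 5, 2.61 in tumor 3, 2.46 in tumor 10 and 0.765 in tumor 12, and it was 0.10 TPM or less in the other 6 tumors. Cidec, which fuses droplets, was 22.9 TPM in tumor 4, 10.3 in tumor 9, 8.89 in tumor 5, 7.59 in tumor 3, 6.06 in tumor 10, 2.72 in tumor 12 and 0.646 in tumor 11, and it was listed at 0 in the remaining 5. The same 6 tumors were highest for Adipoq, Plin1 and Cidec. Among those 6 tumors, which are the ones with at least 3 TPM of Adipoq, a limit chosen after the values were seen, the ratio of Cidec to Adipoq lay between 0.571 and 1.02 and that of Plin1 to Adipoq between 0.218 and 0.485, both highest in tumor 9. Cfd, which is not one of the 10, kept the narrowest ratio of those computed, 4.53 to 6.23.

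The secreted hormones other than adiponectin were scarce. Lep, the gene of leptin, the hormone that reports fat stores to the brain, ranged from 0 in 5 tumors over a median of 0.147 TPM to 5.68 TPM in tumor 9, and tumor 4 with 2.63 TPM was the only other one above 1 TPM. Its ratio to Adipoq was 0.562 in tumor 9 and 0.0132 in tumor 5, a 42.6-fold spread over the 6 tumors. Retn, the gene of resistin, a peptide that rodent adipocytes secrete (ENSMUSG00000012705, chromosome 8 from 3655770 to 3660110), ranged from 0 in 4 tumors over a median of 0.287 TPM to 3.07 TPM in tumor 4, with 2.21 TPM in tumor 9 and 1.05 TPM in tumor 5. Leptin and resistin were therefore highest in tumors with Adipoq above 10 TPM, but not in the order of Adipoq.

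Promoter sequence is shown for Adipoq, Plin1 and Cidec because their levels moved together, and for Lep because it left that pattern in tumor 9. The choice of these 4 genes and of the motifs was made with their values known. Every window holds 250 bases before and 50 bases after the RefSeq transcription start on GRCm38.p6, written 5′ to 3′ on the strand of the gene, and a RefSeq window was found for 6 of the 10 genes. Capitals mark matches, on either strand, to the letters CCAAT, known as the CAAT box, or to TTGCNNAA, a C/EBP motif in which N is any base. A nuclear receptor core site with the letters AGGTCA was searched in the same way. So was the TATA box, taken as the letters TATAAA.

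Adipoq: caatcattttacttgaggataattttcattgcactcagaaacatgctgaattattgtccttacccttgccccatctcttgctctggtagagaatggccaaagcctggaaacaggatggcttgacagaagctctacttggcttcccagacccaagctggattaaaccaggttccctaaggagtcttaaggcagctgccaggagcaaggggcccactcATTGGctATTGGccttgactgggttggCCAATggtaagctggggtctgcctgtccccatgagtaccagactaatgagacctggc

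Plin1: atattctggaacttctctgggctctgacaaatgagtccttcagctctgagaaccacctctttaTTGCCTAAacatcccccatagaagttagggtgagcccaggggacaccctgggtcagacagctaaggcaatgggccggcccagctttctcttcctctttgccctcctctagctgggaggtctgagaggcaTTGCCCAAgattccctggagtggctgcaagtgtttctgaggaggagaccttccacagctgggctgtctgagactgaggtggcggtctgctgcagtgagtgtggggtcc

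Cidec: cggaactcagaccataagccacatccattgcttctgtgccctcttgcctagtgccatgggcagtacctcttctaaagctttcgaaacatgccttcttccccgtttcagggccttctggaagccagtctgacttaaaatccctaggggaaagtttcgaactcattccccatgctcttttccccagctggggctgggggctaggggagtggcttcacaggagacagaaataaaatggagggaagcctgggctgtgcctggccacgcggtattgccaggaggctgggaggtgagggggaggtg

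Lep: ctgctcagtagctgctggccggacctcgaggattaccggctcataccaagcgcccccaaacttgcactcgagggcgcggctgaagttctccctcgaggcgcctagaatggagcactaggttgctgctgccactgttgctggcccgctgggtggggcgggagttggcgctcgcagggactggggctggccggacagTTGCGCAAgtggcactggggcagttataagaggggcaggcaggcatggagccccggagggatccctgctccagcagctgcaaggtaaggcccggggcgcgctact

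The Adipoq window (chr16:23146286-23146585, plus strand) held 3 CAAT boxes, the first at position -34 from the start site, and no match to the other motifs. The Plin1 window (chr7:79732727-79733026, minus strand) held 2 C/EBP motifs, the first at position -187, and the Lep window (chr6:29059971-29060270, plus strand) held 1 at position -55. In the Cidec window (chr6:113435711-113436010, minus strand) the letters of none of these motifs were found. No match overlapped another. Of 32851 windows of the same length, 37.4% held a CAAT box, 10.8% a C/EBP motif, 16.3% a nuclear receptor core site and 13.6% a TATA box. The matches describe the letters, and whether a factor binds there was not tested.

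Which genes went up and down with Adipoq was asked across all genes, with a limma fit of log2(TPM + 1) on the log2(TPM + 1) of Adipoq over 9 mice and Benjamini-Hochberg adjustment over every gene whose mean over mice reached 1 TPM. Adipoq fitted on itself was among the genes adjusted over. It lowers the adjusted p of every gene ranked after it, Cidec included, so values just under 0.05 are not secure. Of 16801 genes other than Adipoq, 2 were called at an adjusted p under 0.05, which is 0.0119%, both with a positive slope. They were Cfd (slope 1.56 ± 0.081 SE, adjusted p = 7.35e-05) and Cidec (slope 0.93 ± 0.089, adjusted p = 0.0073). Cidec was thus 1 of 7 adipocyte genes tested, since Lep and Retn had a mean TPM below 1. Plin1 (slope 0.65 ± 0.083, limma adjusted p = 0.074) and Fabp4 (slope 0.71 ± 0.10, limma adjusted p = 0.10) did not pass, nor did Car3, Lpl, Cidea and Pparg, each with a limma adjusted p of 0.99. With tumors as units and the mouse as a block, 10 of 16801 genes were called, and Plin1 (limma adjusted p = 0.00048) and Fabp4 (0.0028) passed beside Cidec (2.52e-05). All 7 slopes were above 0, with a median of 0.65, where the median over all genes tested was 0.0093 and 8963 of the 16801 slopes were above 0. The Cidec slope moved little but its limma adjusted p was 0.10 without the mouse of tumors 3 and 4 and 0.051 without the mouse of tumor 5, and 0.16 with a pseudocount of 0.1 in place of 1. Without the mouse of tumor 1, of tumor 6, of tumor 7 or of tumors 10, 11 and 12 it was 0.037 to 0.043, so the call is not secure there either. Without tumor 2, 6 of 16801 genes were called, and 4 of them were among the 7 adipocyte genes tested: Cidec (limma adjusted p = 0.0084), Plin1 (0.047), Fabp4 (slope 0.80, 0.0057) and Car3 (slope 1.40, 0.00077). The call of Plin1 there is not secure, since its value lies just under 0.05 with Adipoq fitted on itself in the adjustment.

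With genes of a mean TPM of 0.1 or more in the fit, 4 of 23209 genes (0.0172%) were called, and Cidec and Plin1 were 2 of the 9 adipocyte genes then tested. Of the 4, Cd209g was closest to the threshold (limma adjusted p = 0.041), again with Adipoq fitted on itself in the adjustment, so its call is not secure. Retn (slope 0.32, limma adjusted p = 0.59) and Lep (slope 0.34, limma adjusted p = 0.98) did not pass. Simple correlations with Adipoq over the 9 mice, 9 of them, were tested by exact two-sided permutation of the pairings without adjustment. For Plin1, Pearson's r was 0.98 (exact p = 0.00015) and Spearman's rho 0.97 (exact p = 0.00013). For Cidec, r was 0.98 (exact p = 0.00066) and rho 0.90 (exact p = 0.0020). Both relations kept an r of 0.95 and 0.97 without the mice of tumors 3 and 4 and of tumor 5, the 2 mice farthest from the median of Adipoq (exact p = 0.0012 and 0.024, n = 7).

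The other genes were tied to Adipoq to unequal degrees. For Fabp4, r was 0.93 (exact p = 0.00034) and rho 0.85 (exact p = 0.0054), with an r of 0.86 (exact p = 0.010) and a rho of 0.68 (exact p = 0.10) without those 2 mice. For Retn, r was 0.90 (exact p = 0.0029) and rho 0.83 (exact p = 0.0086), with an r of 0.87 (exact p = 0.026) and a rho of 0.75 (exact p = 0.075) without those mice. For Lep, r was 0.66 (exact p = 0.031) and rho 0.83 (exact p = 0.011), with an r of 0.88 (exact p = 0.024) and a rho of 0.81 (exact p = 0.024) without them. For Lep the pooled r missed 0.05 when any of 6 single mice was left out, the mice of tumors 1, 2, 6 and 7, of tumors 3 and 4, and of tumors 10, 11 and 12, with an exact p up to 0.074. Lpl (r 0.49, exact p = 0.18, rho 0.46, exact p = 0.21), Cidea (r 0.62, exact p = 0.066, rho 0.50, exact p = 0.17) and Pparg (r 0.23, exact p = 0.55, rho -0.025, exact p = 0.96) did not pass. Without the 2 farthest mice r was 0.61 for Lpl (exact p = 0.12), -0.010 for Cidea (exact p = 0.98) and 0.10 for Pparg (exact p = 0.83), so the value for Cidea rests on those 2 mice. Without the mouse of tumor 9, which had Adipoq but no Cidea listed, r for Cidea was 0.83 (exact p = 0.0098). Without tumor 2, r for Lpl was 0.71 (exact p = 0.027).

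**Figure D2:**
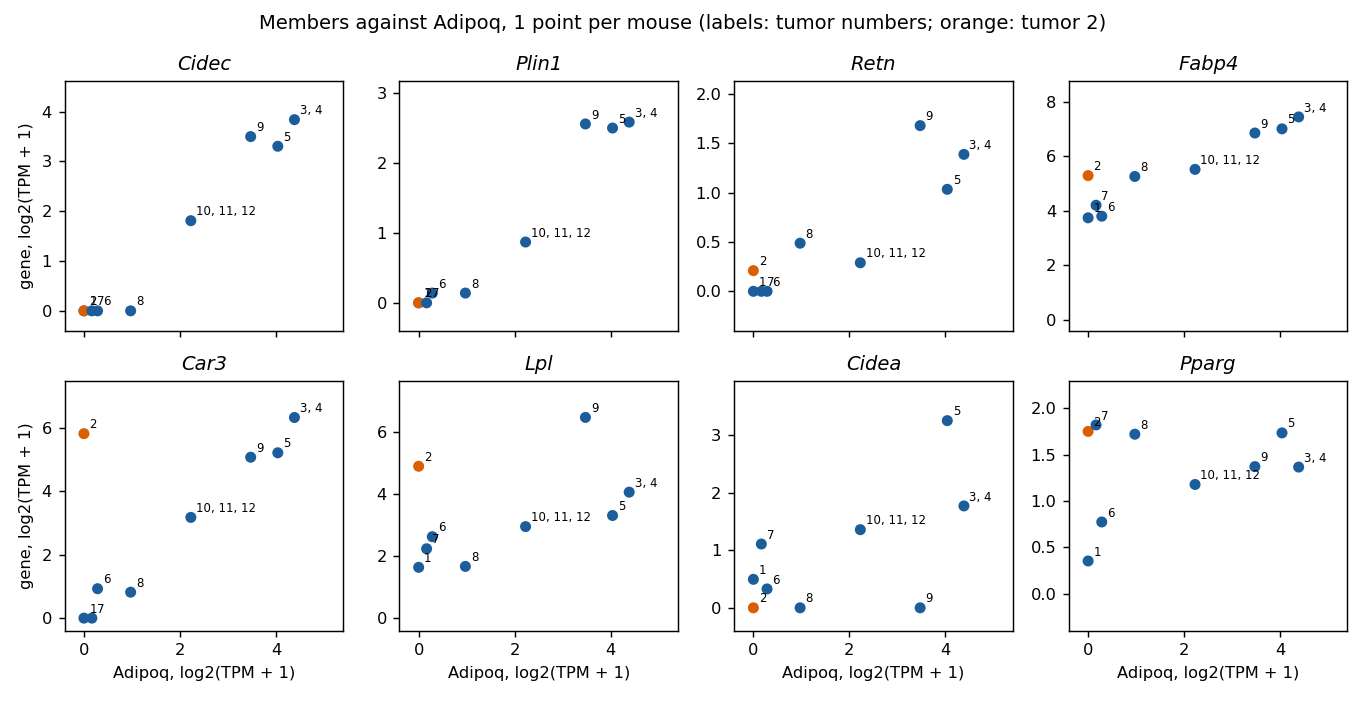
Level of 8 adipocyte genes (vertical axes, log2(TPM + 1)) against Adipoq (horizontal axes, log2(TPM + 1)), 1 point per mouse, labelled by tumor number, with tumor 2 in orange. The points of Cidec, Plin1 and Fabp4 line up with Adipoq (r 0.98, 0.98 and 0.93), those of Car3 do so in all mice but that of tumor 2, and Pparg shows no such order (r 0.23).

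Fabp4 (ENSMUSG00000062515, chromosome 3 from 10204088 to 10208576) was the most abundant of the 10 genes and was present in every tumor. It was 284 TPM in tumor 4, 128 in tumor 5, 115 in tumor 9, 107 in tumor 3, 72.2 in tumor 10, 59.6 in tumor 12, 38.3 in tumor 2, 37.5 in tumor 8, 21.1 in tumor 11, 17.5 in tumor 7, 13.0 in tumor 6 and 12.4 in tumor 1 (mean 67.6 ± 64.0 TPM, SD, n = 9 mice). It was the highest of the 10 in 11 of 12 tumors, the exception being tumor 2, where Car3 was higher. The 6 tumors with 3 TPM or more of Adipoq had from 59.6 to 284 TPM of Fabp4 and the other 6 from 12.4 to 38.3 TPM. That limit was chosen after the values were seen, some of these tumors share a mouse, and the share of all genes split in this way was not computed. Tumors 1 and 2, with no Adipoq listed, still had 12.4 and 38.3 TPM.

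How much of a gene did not scale with Adipoq was described by subtracting, in each tumor, Adipoq times the ratio of the gene to Adipoq in tumor 4, the tumor richest in Adipoq. For Fabp4, with 8.68 TPM per TPM of Adipoq in tumor 4, the remainder was positive in 9 of the 11 other tumors and in all 6 tumors with little Adipoq, with a median of 12.4 TPM over the 12 tumors. In those 6 tumors Adipoq was at most 1.01 TPM, so little was subtracted and a positive sign was nearly fixed once Fabp4 was present. The remainder was 38.3 TPM in tumor 2, 30.1 in tumor 12, 29.1 in tumor 8, 27.5 in tumor 9 and 11.1 in tumor 6, and it was negative in tumor 10 (-19.9 TPM) and tumor 5 (-5.58 TPM). With Plin1 in place of Adipoq the remainder of tumor 9 turned to -38.9 TPM, while those of the 6 tumors with little Adipoq were 9.80 to 38.3 TPM. For Plin1, Cidec, Lep and Retn the median remainder was between -0.072 and -0.0049 TPM, a value that their zeros in 4 or 5 tumors hold near 0. In tumor 9 they had remainders of 2.11 TPM (Plin1), 3.24 TPM (Cidec), 4.86 TPM (Lep) and 1.25 TPM (Retn). With Plin1 in place of Adipoq those of tumor 9 were -2.12 TPM for Cidec, 4.24 TPM for Lep and 0.534 TPM for Retn. Endothelial cells and macrophages, which also use Fabp4, were measured in the same tumors: the summed level of 6 endothelial genes was 56.0 to 225 TPM and that of 6 macrophage genes 359 to 3206 TPM, both highest in tumor 8. Their part in the Fabp4 level was not tested beyond the fits given further on.

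**Figure D3:**
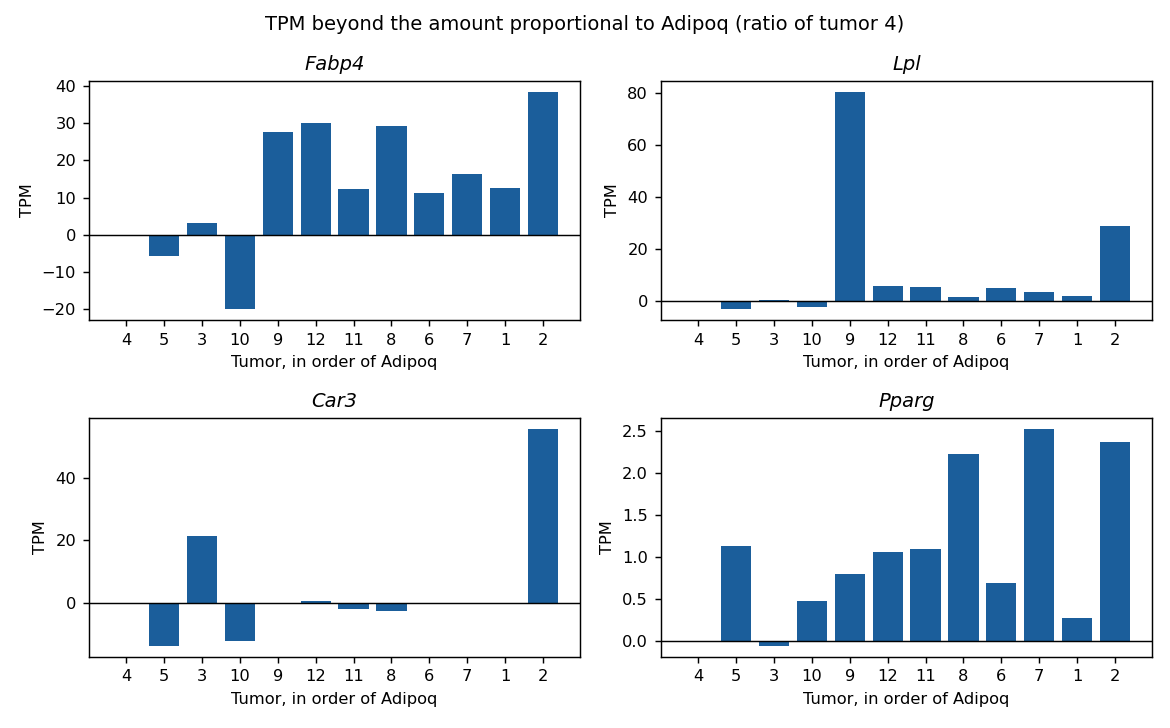
TPM of Fabp4, Lpl, Car3 and Pparg (4 panels, each with its own vertical axis) in each tumor after subtracting the amount proportional to Adipoq at the ratio of tumor 4, with the tumors in falling order of Adipoq. Tumor 4 is 0 by construction. Fabp4 was left with 11.1 to 38.3 TPM in the 6 tumors with the least Adipoq, Lpl stood out in tumor 9 (80.3 TPM) and tumor 2 (28.9 TPM), and Car3 in tumor 2 (55.7 TPM).

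The fatty acid binding family held a gene more abundant than Fabp4. Fabp5, the epidermal form, was 71.1 to 905 TPM and exceeded Fabp4 in 12 of 12 tumors. Of the 8 other family genes 4 were at 0 in every tumor and only Fabp3 and Fabp5 had a mean TPM of 1 or more. Neither was called with Adipoq, with slopes of 0.19 and 0.15 (limma adjusted p = 0.99 for both).

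Car3 (ENSMUSG00000027559, chromosome 3 from 14863512 to 14872523) followed Adipoq closely in the mice other than that of tumor 2. It was 106 TPM in tumor 4, 60.1 in tumor 3, 55.7 in tumor 2, 36.3 in tumor 5, 32.9 in tumor 9, 22.4 in tumor 10, 11.6 in tumor 12, 1.52 in tumor 11, 0.90 in tumor 6 and 0.76 in tumor 8, and it was listed at 0 in tumors 1 and 7. Tumor 2, with all 5 adipocyte markers at 0, lay farthest from the order of Adipoq. Smaller departures were seen too: tumor 3 had more Car3 than tumor 5, tumor 9 more than tumor 10 and tumor 6 more than tumor 8, each with less Adipoq. Over the 9 mice r was 0.71 (exact p = 0.038) and rho 0.57 (exact p = 0.12), and without the 2 mice farthest in Adipoq r was 0.49 (exact p = 0.25). Without tumor 2, r was 0.99 (exact p = 9.92e-05), and leaving out any other single mouse gave an r from 0.61 to 0.71 that no longer passed (exact p = 0.056 to 0.11). With a pseudocount of 0.1 the relation over 9 mice did not pass either (exact p = 0.060). In the 6 tumors with 3 TPM or more of Adipoq, Car3 was 2.11 to 5.03 times Adipoq, highest in tumor 3.

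Skeletal muscle also makes Car3, and muscle genes were present in some tumors. The summed level of 5 muscle genes (Ckm, Acta1, Myh4, Tnnt3 and Myl1) was 294 TPM in tumor 3, 203 in tumor 4, 29.1 in tumor 2, 20.3 in tumor 6 and 0.0188 to 4.92 in the other 8. In tumor 2 Ckm was 23.7 TPM, close to the 25.3 TPM of tumor 3, and Tnnt3 was 5.22 TPM, below only tumors 3 and 4, but Acta1 was 0.191 TPM and Myh4 and Myl1 were at 0. Tumors 5, 9 and 10 had 22.4 to 36.3 TPM of Car3 with a muscle sum of 0.262 to 0.663 TPM. Among its family, Car2 exceeded Car3 in 11 of 12 tumors, with a median of 85.3 TPM, and was highest, 222 TPM, in tumor 2. Of the 15 other carbonic anhydrase genes 7 were tested with Adipoq and none was called by limma.

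Lpl, the gene of lipoprotein lipase (ENSMUSG00000015568, chromosome 8 from 68880491 to 68907448), was above 2 TPM in every tumor and highest in tumor 9, whose Adipoq of 10.1 TPM was below that of tumors 3, 4, 5 and 10. It was 88.2 TPM in tumor 9, 28.9 in tumor 2, 25.6 in tumor 4, 9.59 in tumor 3, 8.96 in tumor 5 and 8.47 in tumor 12, and lay between 2.13 and 6.09 TPM in the other 6. Tumor 9 was thus 3.05-fold above the next tumor, and its ratio of Lpl to Adipoq was 8.73, against 0.565 to 2.49 in the other 5 tumors with 3 TPM or more of Adipoq. Of the level in tumor 9, 80.3 TPM lay beyond the amount proportional to Adipoq, and in tumor 2 the whole 28.9 TPM did. The summed level of the 5 B lymphocyte genes was also highest in these tumors, 1852 TPM in tumor 2 and 115 TPM in tumor 9 against 0.648 to 7.80 TPM in the other 10, and its part in the level of Lpl was not tested.

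Tumor 9 was also highest for Dgat2, Slc2a4 and Csn2, which are singled out here after their values were seen. Dgat2, which makes triglyceride, was 312 TPM there and 9.85 TPM in the next tumor. Slc2a4, the insulin-regulated glucose transporter, was 41.2 TPM there and 3.50 TPM in the next. Csn2, the gene of beta-casein, was 3323 TPM there and 127 TPM in the next. The other milk genes did not all go with it: Csn1s1 was highest in tumor 9 (1855 TPM), but Csn3 was 26.5 TPM there against a median of 710 TPM, Wap was highest in tumor 6 (3.76 TPM) and Glycam1 in tumor 11 (10.8 TPM). Thrsp, a regulator of fatty acid synthesis, was 99.7 TPM in tumor 9 and 129 TPM in tumor 12. Dgat2, Slc2a4, Csn2 and Csn1s1 were thus highest in the same single tumor as Lpl and Lep, and the part of what they mark in the level of Lpl or Lep was not tested.

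None of the partners of lipoprotein lipase passed the test with Adipoq. Gpihbp1, which carries the enzyme across capillary endothelium, was 4.72 to 74.5 TPM, lowest in tumor 2 and highest in tumor 6. Lmf1, needed for its folding, was 13.5 to 42.3 TPM, and its inhibitor Angptl4 was 4.30 to 158 TPM, lowest in tumor 9. Cd36, a fatty acid transporter, was 47.0 TPM in tumor 4 and 0.331 TPM in tumor 1, and its slope on Adipoq of 0.53 ± 0.18 did not pass (limma adjusted p = 0.99). Of 10 genes in this group 7 were tested and none was called, and their median slope was 0.049.

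Pparg (ENSMUSG00000000440, chromosome 6 from 115360951 to 115490399) was low in every tumor. Its values, from 0.277 TPM in tumor 1 over a median of 1.46 TPM to 2.55 TPM in tumor 4 (mean 1.67 ± 0.797 TPM, SD, n = 9 mice), did not sort the tumors by fat: tumors 7, 2 and 8, with less than 1 TPM of Adipoq, had 2.53, 2.37 and 2.30 TPM. Tumors with 3 TPM or more of Adipoq had 0.872 to 2.55 TPM and the other 6 had 0.277 to 2.53 TPM, so the ranges overlapped almost entirely. The slope on Adipoq was 0.065 ± 0.11 (limma adjusted p = 0.99), and it was -0.0082 without the mouse of tumor 1. The RXR partner gene Rxra and the related receptor Ppard exceeded Pparg in 12 of 12 tumors. Of 11 partners and targets 8 were tested and none was called by limma. Cebpa, listed with the other adipocyte genes, had a median of 20.2 TPM and a slope of 0.32 ± 0.13 (limma adjusted p = 0.99).

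Cidea was set apart by a single tumor. It was 8.56 TPM in tumor 5, 2.46 in tumor 4, 2.38 in tumor 3, 2.00 in tumor 12, 1.66 in tumor 10, 1.16 in tumor 7, 1.12 in tumor 11, 0.41 in tumor 1 and 0.26 in tumor 6, and it was listed at 0 in tumors 2, 8 and 9. Tumor 5 was 3.49-fold above the next, and tumor 9, with 10.1 TPM of Adipoq, had no Cidea listed. Brown fat genes were checked because Cidea marks brown adipocytes. Ucp1, the heat-producing uncoupling protein, was 20.1 TPM in tumor 5 and listed at 0 in the 11 other tumors. Cox8b, a subunit of cytochrome oxidase in brown fat and muscle, was 9.49 TPM in tumor 5, then 3.40 in tumor 4, 2.14 in tumor 9 and 1.76 in tumor 3, and was at 0 in 8 tumors. Elovl3, a fatty acid elongase of brown fat, was 0.320 TPM in tumor 5 and at 0 in the others.

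The other brown fat genes did not single out tumor 5. Dio2, which activates thyroid hormone, and Cox7a1, another oxidase subunit, were highest in tumor 2 with 69.4 and 42.8 TPM, Prdm16 was 0.043 TPM in tumor 5 and 10.0 TPM in tumor 9, and Ppargc1a was 2.44 TPM in tumor 5 and 4.73 TPM in tumor 7. Of the 7 genes 6 were tested with Adipoq and none was called, with slopes from -0.18 to 0.58. The pattern of tumor 5 rests on 1 tumor with no repeat.

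**Figure D4:**
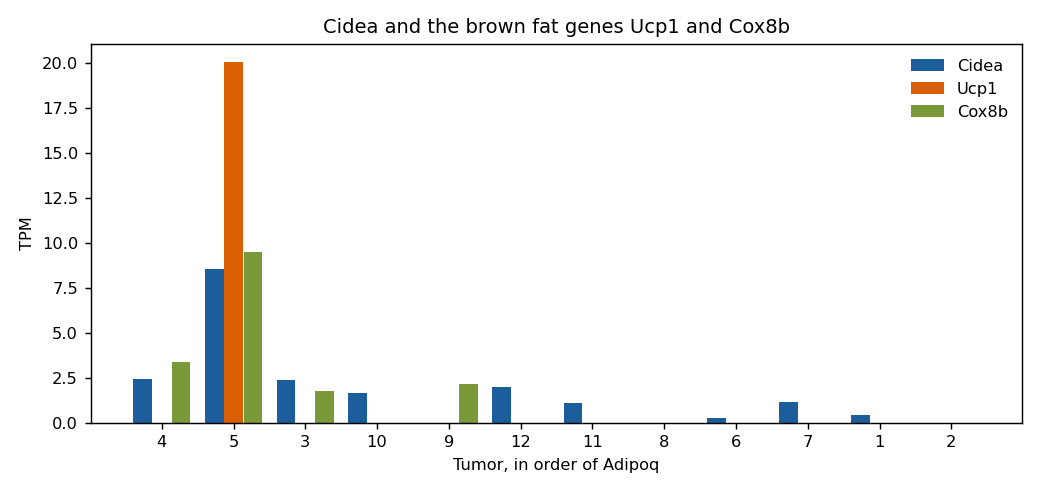
Bars give the TPM of Cidea, Ucp1 and Cox8b in each tumor, with the tumors in falling order of Adipoq. Tumor 5 was highest for all 3 (8.56, 20.1 and 9.49 TPM), Ucp1 was at 0 in every other tumor, and Cidea was at 0 in tumor 9.

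Tumors that shared a mouse differed in fat. Tumor 4 exceeded tumor 3 for 10 of 10 genes, by 2.73-fold for Adipoq, 2.66-fold for Fabp4, 3.02-fold for Cidec and 1.03-fold for Cidea, where 44.0% of the 16802 genes that passed the filter were higher in tumor 4. Fibroblast genes (sum of 6) were higher there too, from 1085 to 2851 TPM, as were macrophage genes, from 1194 to 2029 TPM, and endothelial genes, from 70.7 to 106 TPM. Lower there were epithelial genes, from 5468 to 4220 TPM, skeletal muscle genes, from 294 to 203 TPM, and milk genes, from 2470 to 1945 TPM. The part of these other genes was not tested. Of tumors 10, 11 and 12, Adipoq was 10.6, 1.01 and 3.40 TPM, and tumor 11 was the lowest for 9 of the 10 genes, as it was for 31.9% of the 16802 genes. The macrophage sum was 2865, 1582 and 1626 TPM in these tumors and the epithelial sum 3218, 4397 and 4085 TPM, and their part was not tested. Car3 differed 14.7-fold between tumors 10 and 11 and Fabp4 3.43-fold, while Pparg differed 1.12-fold and Lpl 0.985-fold. With 2 such mice no test was made.

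Ordered by the mean of log2(TPM + 1) over the mice, a level per length, the genes ran Fabp4, Lpl, Car3, Adipoq, Cidec, Pparg, Plin1, Cidea, Retn and Lep. By mean TPM some neighbours changed places, with Car3 (24.6) above Lpl (18.2), Plin1 (1.85) above Pparg (1.67) and Lep (0.876) above Retn (0.659). Neighbours were compared by an exact two-sided sign-flip permutation test over the 9 mice, without adjustment over the 9 pairs. Its smallest possible p is 0.0039 where the genes differ in all 9 mice, and larger where they are tied in some. Fabp4 exceeded Lpl by 2.14 on the log2(TPM + 1) scale in 9 of 9 mice (exact p = 0.0039). Car3 exceeded Adipoq by 1.32 (higher in 6 mice, lower in 2, exact p = 0.031), which became 0.75 without tumor 2 (exact p = 0.0625). Its exact p was also 0.0625 without the mice of tumors 3 and 4, of tumor 5, of tumor 6, of tumor 9 or of tumors 10, 11 and 12, and 0.055 with a pseudocount of 0.1. Adipoq exceeded Cidec by 0.34 (higher in 6 mice, lower in 1, exact p = 0.031). The other 6 neighbours did not differ beyond their spread over mice, with differences of 0.04 to 0.36 and an exact p between 0.36 and 0.93. Genes that are not neighbours in this order were not tested. The test of Adipoq against Cidec gave an exact p of up to 0.0625 when single mice were left out.

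The genes most alike to each gene over the 9 mice, by Pearson's r among the 16802 genes that passed the filter on low levels, are given without a test. For Adipoq they were Cfd (r 0.994, rho 1), Cidec (0.982) and Plin1 (0.975), and Plin1 and Cidec each had the other, Adipoq and Cfd as their 3 most alike. For Fabp4 they were R74862 (0.962), Cyp4b1 (0.940) and Adipoq (0.933). Lep and Retn, under the filter, were not ranked. Car3 was most like Myo5c (0.988), Zfp444 (0.970) and Gltscr2 (0.947), Lpl like Gm42477 (0.995), Zbtb14 (0.970) and Narfl (0.964), Cidea like Chst9 (0.958), Stk26 (0.931) and Rbm45 (0.921), and Pparg like Gm16185 (0.935), Ltn1 (0.933) and Armc8 (0.885). The list of Car3 rests on tumor 2: without it Car3 was most like Adipoq (0.990), Cidec (0.988) and Cfd (0.988), and Car3 entered the lists of Adipoq (0.990), Plin1 (0.976) and Cidec (0.988). Cidec and Plin1 then left the list of Adipoq, which Myo5c (0.983) entered, and Cfd left those of Plin1 and Cidec. Without tumor 2 Lpl kept Gm42477 (0.995) of its 3, Pparg kept Gm16185 (0.928) and Ltn1 (0.927), Fabp4 kept R74862 (0.985) and Adipoq (0.982), and Cidea kept none. How often such values arise by chance with 9 points and 16802 genes was not tested, so the lists describe these tumors only. Of the genes most alike to Adipoq, Cfd and Cidec were also called with it in the fit over all genes.

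Of 12 other adipocyte genes 10 were tested and 1, Cfd, was called with Adipoq, and all 10 slopes were above 0 with a median of 0.54. Plin4, a further droplet coat, had a slope of 0.58 ± 0.086 (limma adjusted p = 0.14), Pck1, which makes the glycerol backbone, 0.64 ± 0.10 (0.23), and Lipe, the hormone-sensitive lipase, 0.36 ± 0.078 (0.99). With tumors as units and the mouse as a block, Plin4 (limma adjusted p = 0.023) and Pck1 (0.0021) were called. Lipe was present throughout, at 7.20 to 29.0 TPM. Among the droplet families Plin2, the coat protein of cells outside fat, exceeded Plin1 in 12 of 12 tumors, with 59.6 to 520 TPM and a slope on Adipoq of 0.014, and of 5 such genes 3 were tested and none was called by limma. The receptors of the hormones were present in all 12 tumors: Adipor1 was 65.4 to 269 TPM, Adipor2 37.4 to 112 TPM, the adiponectin-binding cadherin Cdh13 1.03 to 55.1 TPM and the leptin receptor Lepr 0.161 to 1.52 TPM. Of these 3 were tested, none was called by limma, and all 3 slopes were below 0.

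The same fit was made on other cell types that could carry these genes. On the mean level of 6 endothelial genes, 1 of 16796 genes was called (0.00595%), and none of the 8 adipocyte genes tested was. Fabp4 had a slope of -0.29 ± 0.59 (limma adjusted p = 0.88). On 6 macrophage genes, 874 of 16796 genes were called (5.2%), none of them among the 8, and Fabp4 had a slope of 0.082 ± 0.48 (limma adjusted p = 0.93). That count of 874 became 0 without tumor 2 and, without the mice of tumor 5, tumor 8, tumor 9 or tumors 10, 11 and 12, it became 486, 1579, 1705 or 397. On 5 skeletal muscle genes limma called 0 of 16797 genes (0%), with 495 at an unadjusted p under 0.05 and 9 called without tumor 2, and Car3 had a slope of 0.77 ± 0.46 (limma adjusted p = 1.00). No adipocyte gene was called with any of these references, and a p that misses the threshold does not show that a gene has no part from that cell type.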

How the data were processed

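RNA from 12 mammary tumors of 9 mice was sequenced from stranded mRNA libraries. The authors trimmed reads with fastq-mcf, aligned them with HISAT2 to GRCm38 and deposited 1 TPM value per gene and tumor from StringTie (2.1.6 in the submitters' processing notes). Depth is unknown. Gene positions came from GENCODE vM21 and promoters from RefSeq.

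Tumors of a mouse were averaged as log2(TPM + 1). Genes with a mean of 1 TPM or more (16802) were fitted on a reference level with limma 3.58.1 (R 4.3.3), Benjamini-Hochberg adjusted over all, the reference genes included. Correlations and neighbouring levels were tested by exact permutation with scipy 1.17.1 (Python 3.11.15, numpy 2.4.6, pandas 2.3.3, matplotlib 3.10.9). The fit was tried on simulated data. P-values measure the spread between mice and, in the fit with tumors as units, also the spread between tumors of a mouse. Alternatives were a pseudocount of 0.1, a minimum of 0.1 TPM, tumors as units, TPM without mitochondrial genes, other fat references and leaving out each mouse; the most alike genes without tumor 2 and the shares of all genes for tumors of a mouse were added after seeing the data. The named genes are the 10 genes, the 3 most alike to each, and listed partners, families and markers. Genes and lists were chosen with earlier results of these data known.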

Additional observations from a re-analysis of the deposited data

Results flagged for a closer look

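Lep in the mouse of tumor 9 was the only level of an adipocyte gene that lay far from the rest of the 9 mice, by Dixon's ratio of the gap to the range at the 95% level. It was 2.74 on the log2(TPM + 1) scale, and the nearest mouse was at 1.27. Chance picks out about 1 in 20 groups in such a test, and 10 genes were looked at from both ends. In TPM, Lep was 5.68 in tumor 9 and 2.63 in tumor 4, the next tumor. In tumor 9 Lpl was 88.2 TPM, Dgat2 312 TPM and Csn2 3323 TPM, each the highest of the 12 tumors, and the part of what these genes mark in the level of Lep was not tested.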

How the results depend on the processing

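The count of genes called with Adipoq (2) and of adipocyte genes among them (1) became 1 and 0 with a pseudocount of 0.1, 4 and 2 with a minimum of 0.1 TPM, and 10 and 3 with tumors as units and the mouse as a block. The reference genes were part of each adjustment, so calls just under 0.05 are not secure. With Plin1 or 5 other adipocyte genes as the reference, 3 of 16801 and 2 of 16798 genes were called, of which 2 in each case were among the 7 and 8 adipocyte genes tested. Leaving out each mouse in turn gave 1 to 6 genes and 0 to 4 adipocyte genes for Adipoq, 0 to 1 genes for the endothelial, 0 to 1705 for the macrophage and 0 to 9 for the skeletal muscle reference. The endothelial count was 0 with a minimum of 0.1 TPM and 6 with tumors as units, and the skeletal muscle count 36 and 8. No adipocyte gene was called with those 3 references under any alternative run. The causes were not tested. Among the tested values signs turned for 7, none of which passed its test over the 9 mice. Remainders were not tested and could turn too: the median for Lep was -0.0049 TPM and became 0.038 TPM with the ratio of tumor 5. The r of Cidea was -0.010 without the 2 mice farthest in Adipoq. For Pparg, r was -0.041 and the slope -0.0082 without the mouse of tumor 1, with r up to 0.40 and the slope up to 0.11 without other mice. Lpl minus Car3 was -0.015 with tumors as units. With a pseudocount of 0.1, Cidec minus Pparg was -1.17 and Plin1 minus Cidea -0.17. Without single mice, Cidec minus Pparg ran from -0.26 to 0.28 (-0.26, -0.15, -0.22 and -0.031 where negative), Plin1 minus Cidea from -0.26 to 0.20 (-0.26 and -0.042) and Retn minus Lep from -0.051 to 0.18 (-0.051 and -0.016). No paired analysis was possible because the labels give 1 group, so replicate numbers pair no samples across groups. Depth is unknown, so no limit can be put on genes listed at 0, and 9 mice limit every adjusted p.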
